A study of Homo sapiens with 6 samples.

Results

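Target genes of the hypoxia-inducible factors (HIF) that lie outside glycolysis were examined in Hep3B, a cell line from a human hepatocellular carcinoma. The 31 genes form a list of known HIF targets, given by symbol, that are not glycolytic enzymes or glucose transporters, and each is represented by its brightest probe set. Of these, 29 had a probe set named on the array and 28 passed a filter on dim probe sets, among 19775 genes named and 13781 tested. CA9, a tumour-associated carbonic anhydrase, and 1 further gene had no probe set named in the annotation used here and are not analysed. STC1 lay below the filter.

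Total RNA was hybridised to 6 HG-U133 Plus 2.0 arrays of Affymetrix. Clone D20 carried the plasmid siSDHB, which is labelled as a knockdown of SDHB, a subunit of succinate dehydrogenase with iron-sulfur centres, and gave arrays A, B and C. The control clone pU6-2 carried the plasmid pU6 and likewise gave arrays A, B and C. Both clones were kept under G418 in air with added CO2 and were harvested near confluence, so no hypoxic sample entered the comparison. Each group is a single clone, so the silencing and any other difference between the clones cannot be told apart, and since the labels name no separate cultures for the 3 arrays of a clone, p-values measure only the spread between these arrays, which may be technical. The level of SDHB was not analysed here, which leaves the silencing unchecked.

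HIF is a dimer of an oxygen-regulated alpha subunit, HIF-1 alpha or HIF-2 alpha, and the constant subunit ARNT. In the presence of oxygen, prolyl hydroxylases of the EGLN family modify the alpha subunit, which VHL then marks for degradation. These enzymes consume 2-oxoglutarate and release succinate, the substrate of succinate dehydrogenase. When the alpha subunit is stable, the dimer binds a short core motif, ACGTG or GCGTG, and drives genes for blood vessel growth, red cell production, pH control, lipid and glycogen storage and the slowing of growth.

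Hepatocyte marker transcripts were present in both clones. ALB, albumin, had a mean signal of 43935 in D20 and 43678 in pU6-2. The summed signal of the 10 named hepatocyte markers was 141238 to 166696 in D20 against 253136 to 260559 in pU6-2 (two-sided exact permutation test, p = 0.1, the smallest that 3 against 3 arrays allow). Calls on markers come from the limma fit described below, which called 23.7% of all genes tested higher and 20.8% lower. Of the hepatocyte markers 2 were called higher and 6 lower. Among the lower ones AFP averaged 403 in D20 and 20570 in pU6-2, and APOA1 averaged 1206 in D20 and 12192 in pU6-2. Among the higher ones FGB averaged 6569 in D20 and 2004.5 in pU6-2. Of the 7 fibroblast markers 1 fell and none rose, their sum overlapping at 332.0 to 757.5 in D20 and 593 to 798.5 in pU6-2, with COL3A1 below the filter. Of the 5 named blood cell markers 1 fell, LYZ, and the sum was 166 to 250.5 in D20 and 3923 to 5254 in pU6-2, with PTPRC and CD3E below the filter. Of the 5 endothelial markers 1 rose, PECAM1, and the sum was 256 to 342 in D20 and 112 to 177 in pU6-2, with VWF, CDH5, KDR and TEK below the filter. Of the 4 biliary markers 2 rose and 1 fell, with a sum of 20835 to 23556 in D20 and 19519 to 20370.4 in pU6-2. The ratio of 3 prime to 5 prime signal of ACTB was 1.40 to 1.68 in D20 and 1.42 to 1.90 in pU6-2. The part of these marker shifts in the results on HIF targets was not tested. Both groups are clones of the same cell line, and in such bulk RNA fewer cells expressing a marker and less of its RNA per cell cannot be told apart.

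In clone D20 more of these HIF targets were higher than lower, but the group did not move as one. By limma, with p-values adjusted after Benjamini and Hochberg across the 32768 probe sets tested and called below 0.05, 12 of the 28 tested genes rose, 5 fell and 11 did not pass the test. Over all 13781 genes tested, 23.7% were called higher and 20.8% lower, 44.5% in either direction, against 42.9% and 17.9% of these 28. Of the 28, 7 were called with a rise of at least 2-fold, against 10.8% of all genes tested. A called fall of at least 2-fold was seen for 2 of the 28, against 6.57% of all genes tested. The list was chosen with earlier results of these data known, so these shares are set side by side as a description with no test. VLDLR, ADM, NDRG1, ANKRD37, VEGFA, STC2 and CITED2 rose at least 2-fold, and PPP1R3C and AK4 fell at least 2-fold. The median log2 fold change, D20 over pU6-2, was 0.26 over the 28 genes and 0.04 over all genes. Without the probe sets marked as able to match several transcripts, 18 of the targets were left. Of these 6 rose and 5 fell, where 22.1% and 19% of all genes did. The median of these targets was -0.26 against 0.04 over all genes. The arrays of the clones did not overlap for 13 genes higher in D20 and 7 lower, where 28.8% and 25.3% of all genes, 54.1% together, showed such a separation.

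Scaling moved these counts with those of all genes. The median over all genes was 0.25 with the arrays scaled on spiked-in control RNA and -0.08 with each array centred on its own median, both shifting all genes by nearly the same amount. The spike-in signal itself averaged 8.97 to 9.03 on the log2 scale in D20 and 9.14 to 9.32 in pU6-2. With spike-in scaling 13 of the targets rose and 3 fell, where 32.8% and 12.3% of all genes did. With median centring 11 rose and 8 fell, where 18.6% and 25.5% of all genes did. The targets' median lay 0.23 above that of all genes in the values as deposited, and 0.12 above it without array D20 A, where it was 0.16.

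**Figure D1:**
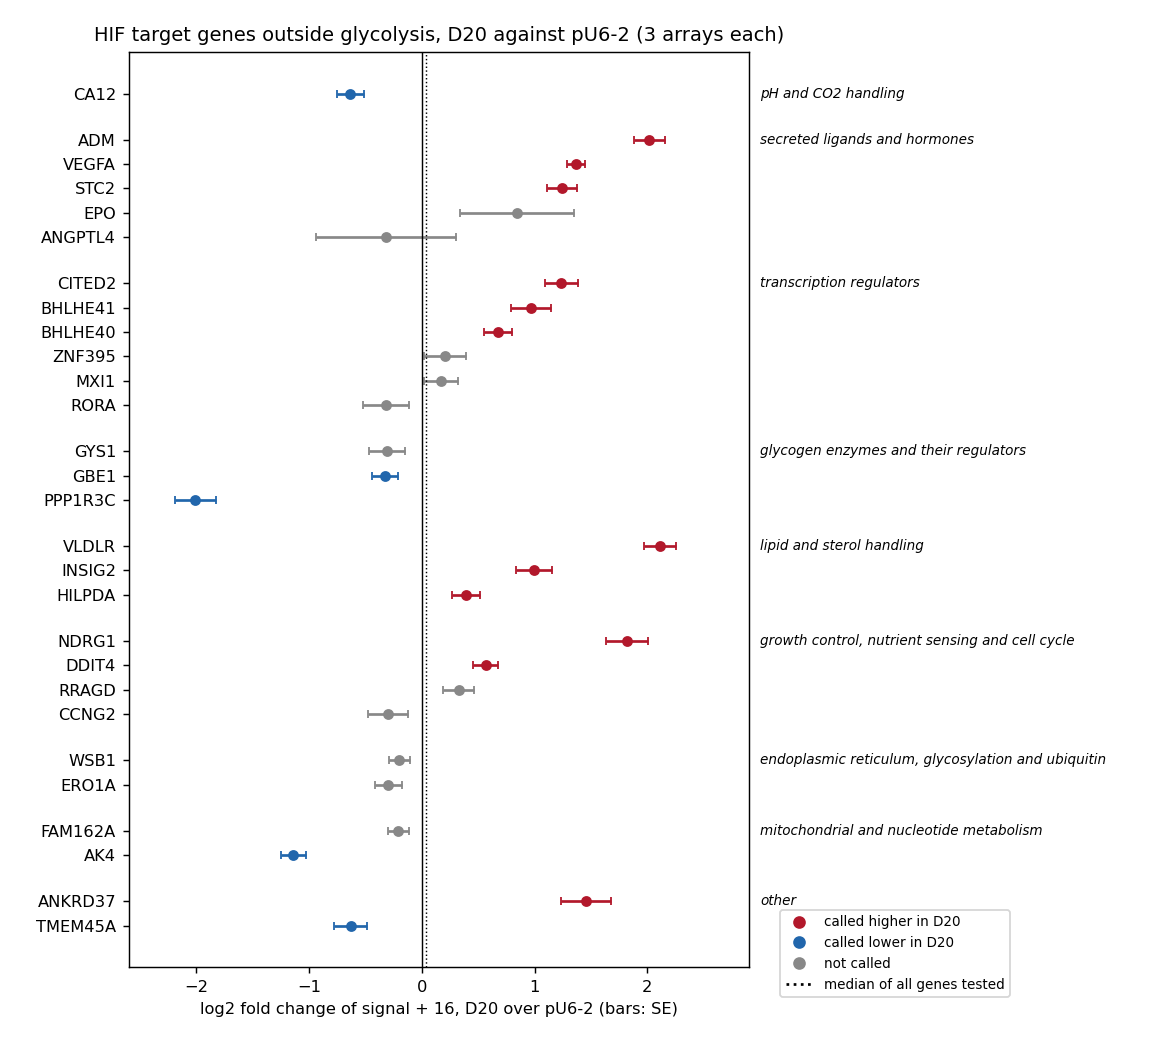
Log2 fold change of signal + 16, D20 over pU6-2, for the 28 tested HIF targets (points, bars are SE from limma, 3 arrays per clone), grouped by role. VLDLR at 2.11 and ADM at 2.02 lie farthest right and PPP1R3C at -2.01 farthest left, and the dotted line marks the median of all genes at 0.04.

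The promoters of the genes that changed at least 2-fold were read from RefSeq (build GRCh38.p14), as 250 bases before to 50 after a start of transcription. They are shown because the core motif is where HIF is known to bind, and CA9 is shown as a widely used example of a HIF-bound promoter, with no expression value here. Promoters of VEGFA and NDRG1 are not shown. The windows are chr9:2621537-2621836 for VLDLR (plus strand), chr11:10304823-10305122 for ADM (plus), chr4:185396591-185396890 for ANKRD37 (plus), chr5:173328365-173328664 for STC2 (minus), chr6:139374599-139374898 for CITED2 (minus), chr1:65147302-65147601 for AK4 (plus), chr10:91633022-91633321 for PPP1R3C (minus) and chr9:35673678-35673977 for CA9 (plus). CITED2 has 3 such windows and AK4 has 4, of which the most upstream is printed. Each runs 5′ to 3′ on the gene's strand, and capitals mark ACGTG or GCGTG on that strand or their reverse complements CACGT and CACGC.
VLDLR: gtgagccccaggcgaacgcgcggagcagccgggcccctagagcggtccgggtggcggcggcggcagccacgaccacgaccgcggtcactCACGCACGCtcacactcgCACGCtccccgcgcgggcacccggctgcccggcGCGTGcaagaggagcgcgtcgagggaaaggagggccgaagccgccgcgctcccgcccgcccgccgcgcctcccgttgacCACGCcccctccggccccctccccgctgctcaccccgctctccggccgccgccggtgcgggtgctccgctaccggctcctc
ADM: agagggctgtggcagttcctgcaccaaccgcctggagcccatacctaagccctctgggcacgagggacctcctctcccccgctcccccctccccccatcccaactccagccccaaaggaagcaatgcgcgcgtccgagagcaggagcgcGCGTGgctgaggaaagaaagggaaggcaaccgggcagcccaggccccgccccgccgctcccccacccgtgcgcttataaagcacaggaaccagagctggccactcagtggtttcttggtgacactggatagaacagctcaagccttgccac
ANKRD37: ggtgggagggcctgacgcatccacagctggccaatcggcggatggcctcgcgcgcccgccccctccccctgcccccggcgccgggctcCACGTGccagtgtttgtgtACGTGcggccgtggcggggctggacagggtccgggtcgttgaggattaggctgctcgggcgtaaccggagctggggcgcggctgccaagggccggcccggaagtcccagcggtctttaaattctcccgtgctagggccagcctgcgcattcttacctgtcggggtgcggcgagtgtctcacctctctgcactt
STC2: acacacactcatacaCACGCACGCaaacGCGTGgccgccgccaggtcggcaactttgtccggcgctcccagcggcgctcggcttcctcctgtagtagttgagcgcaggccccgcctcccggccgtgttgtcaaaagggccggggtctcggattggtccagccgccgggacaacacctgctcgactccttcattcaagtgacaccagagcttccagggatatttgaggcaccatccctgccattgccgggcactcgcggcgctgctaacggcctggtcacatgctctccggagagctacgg
CITED2: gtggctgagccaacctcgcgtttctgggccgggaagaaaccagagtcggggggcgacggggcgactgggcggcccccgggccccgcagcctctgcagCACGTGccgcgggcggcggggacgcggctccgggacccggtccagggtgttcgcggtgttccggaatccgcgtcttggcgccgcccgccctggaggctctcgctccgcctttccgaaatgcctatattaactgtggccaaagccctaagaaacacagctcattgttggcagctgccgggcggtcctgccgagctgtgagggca
AK4: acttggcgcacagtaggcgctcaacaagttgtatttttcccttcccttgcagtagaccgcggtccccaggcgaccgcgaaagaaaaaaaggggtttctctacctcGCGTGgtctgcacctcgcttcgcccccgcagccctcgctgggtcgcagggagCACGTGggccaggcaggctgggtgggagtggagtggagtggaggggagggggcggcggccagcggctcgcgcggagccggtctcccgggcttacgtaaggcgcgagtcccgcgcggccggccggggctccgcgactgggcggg
PPP1R3C: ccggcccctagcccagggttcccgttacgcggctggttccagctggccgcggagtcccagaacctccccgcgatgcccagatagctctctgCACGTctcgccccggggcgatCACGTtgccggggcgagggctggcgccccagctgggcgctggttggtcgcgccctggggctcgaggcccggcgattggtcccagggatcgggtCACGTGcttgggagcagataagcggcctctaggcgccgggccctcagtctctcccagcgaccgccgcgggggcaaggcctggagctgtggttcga
CA9: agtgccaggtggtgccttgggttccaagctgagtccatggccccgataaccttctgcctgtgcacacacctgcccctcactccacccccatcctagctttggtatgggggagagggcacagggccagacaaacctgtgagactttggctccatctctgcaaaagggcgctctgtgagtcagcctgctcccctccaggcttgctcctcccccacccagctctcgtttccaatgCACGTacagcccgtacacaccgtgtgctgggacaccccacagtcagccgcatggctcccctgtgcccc

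Both risers and fallers held the core motif. PPP1R3C, which fell most, held ACGTG 4 times counting both strands, the pair 45 and 44 bases before the start being the 2 strands of CACGTG. ANKRD37, which rose, held it 3 times, 2 of them as the strands of CACGTG. AK4 and CITED2 each held 1 CACGTG in the window shown, counted as 2 matches. VLDLR held GCGTG 5 times and ACGTG in no place, STC2 held GCGTG 3 times and ADM 1 time, 101 bases before its start. A match is a description of these letters and not a bound site. The only window of RORA lies at a start inside the gene, not at its outermost end.

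Of the 23 tested targets with a promoter in the table, 15 (65.2%) held ACGTG on either strand in at least 1 window, against 24.9% of all 27305 genes of the table and 31.1% of the 11112 of them tested on the array. GCGTG was held by 15 (65.2%), against 40.6% of all genes of the table and 56.4% of the tested ones. ACGTG was held by 6 of 9 targets called higher, 3 of 5 called lower and 6 of 9 not called. Since these genes are known as HIF targets, their share of motifs is a description with no test. The palindrome CACGTG, a general E-box, counts as a match on both strands.

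**Figure D2:**
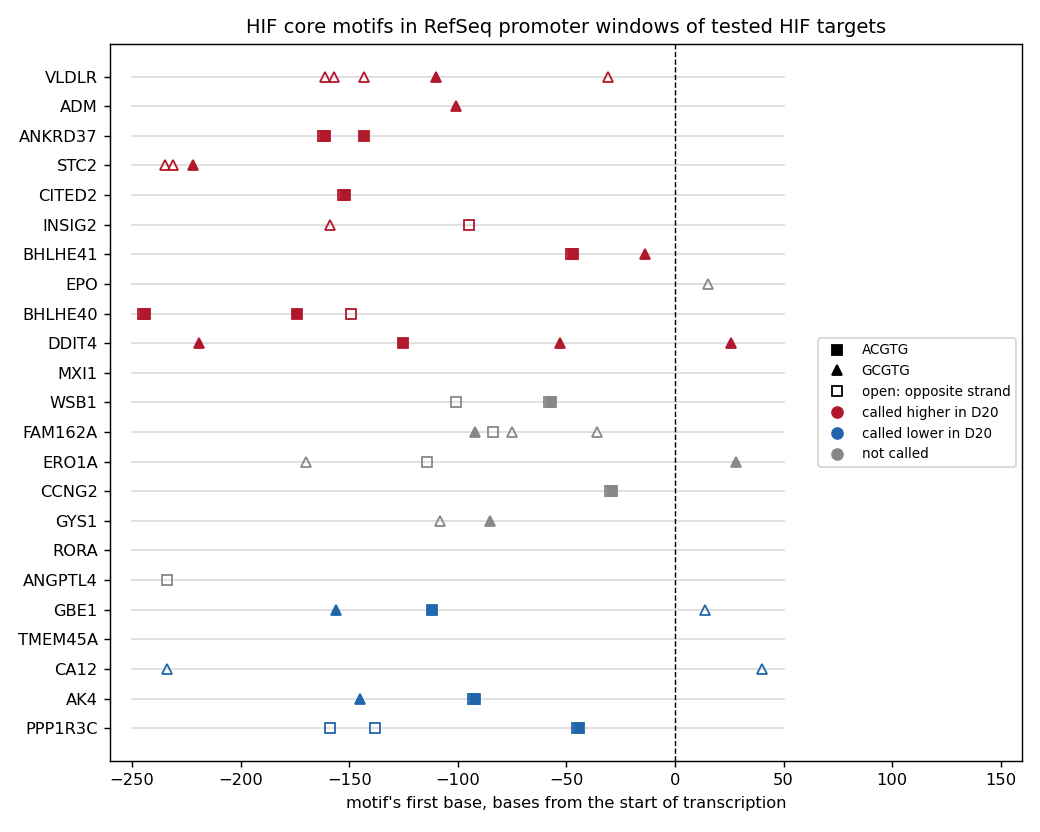
Positions of ACGTG (squares) and GCGTG (triangles) in the most upstream RefSeq promoter window of 23 tested HIF targets, in bases from the start of transcription that the window is built on, with genes ordered from the largest rise to the largest fall and open symbols for the opposite strand. Motifs occur in genes called higher, called lower and not called, and the windows of MXI1, RORA and TMEM45A shown hold neither motif.

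Of the 5 secreted factors tested 3 rose and none fell, where 23.7% of all genes rose. ADM encodes adrenomedullin, a peptide that widens blood vessels. Its signal was 1544, 1318 and 1539 on the D20 arrays A, B and C, against 369, 357 and 323 on the pU6-2 arrays A, B and C. All D20 arrays lay above all pU6-2 arrays, with a log2 fold change of 2.02 ± 0.13 (SE, limma adjusted p = 1.4e-07).

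VEGFA, the main growth factor for blood vessels, had signals of 12466, 12407 and 14075 in D20, against 4785, 5263 and 4994 in pU6-2, arrays here and below in the order A, B and C. The log2 fold change was 1.37 ± 0.08 (SE, limma adjusted p = 6e-08), and the clones did not overlap. Its other 3 probe sets were called higher as well, at 1.30, 1.41 and 1.69 on the log2 scale, so every tested probe set of VEGFA gave the same direction.

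STC2, stanniocalcin 2, a secreted glycoprotein also induced by stress of the endoplasmic reticulum, had signals of 1333, 1259 and 1099 in D20, against 455, 519 and 557 in pU6-2. These did not overlap, and the log2 fold change was 1.24 ± 0.14 (SE, limma adjusted p = 1.2e-05). Its other probe set was at 0.75 and did not pass the test (limma adjusted p = 0.11). Its relative STC1 was dim, at 46.2 ± 45.0 in D20 and 29.5 ± 29.9 in pU6-2 (SD, n = 3 each), and was not tested.

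EPO, erythropoietin, the hormone of red cell production for which Hep3B is a classical producing line under hypoxia, was dim. Its signal was 57.6, 161 and 86.0 in D20, against 38.3, 90.1 and 23.6 in pU6-2. The clones overlapped, the array B of each being the highest, and the log2 fold change of 0.85 ± 0.50 (SE) did not pass the test (limma adjusted p = 0.22). ANGPTL4, an inhibitor of lipoprotein lipase, was also dim, at 54.0 ± 56.5 in D20 and 60.8 ± 32.2 in pU6-2 (SD, n = 3 each), and had a log2 fold change of -0.32 (limma adjusted p = 0.73), which was 0.04 without array D20 B.

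**Figure D3:**
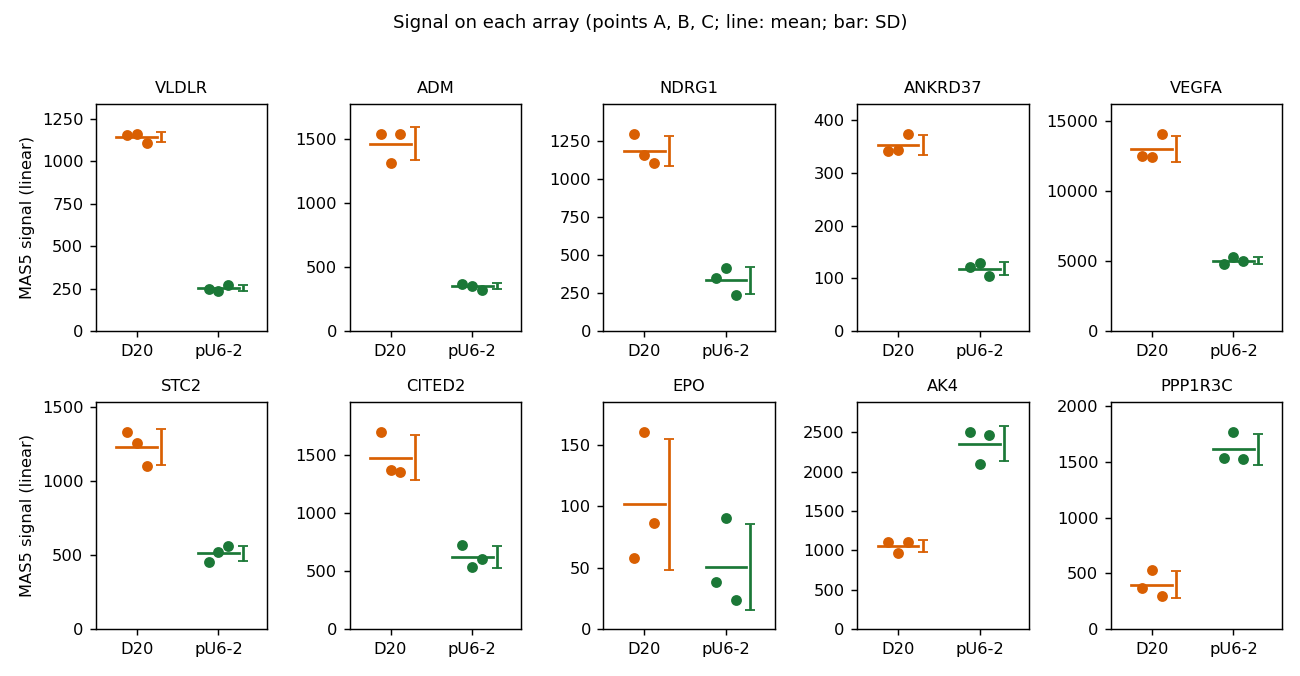
MAS5 signal on a linear axis from 0 for the 9 HIF targets called with at least a 2-fold change and for EPO, with the 3 arrays of D20 left and of pU6-2 right (points; line, mean; bar, SD). The clones lie apart for all 9 and overlap for EPO, whose highest D20 array is at 161 and highest pU6-2 array at 90.1.

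All 3 lipid and sterol genes were called higher, where 23.7% of all genes were. VLDLR, the receptor for very low density lipoprotein, had the largest rise of the 28 genes, with signals of 1152, 1160.3 and 1107 in D20, against 246, 236.5 and 272 in pU6-2. The log2 fold change was 2.11 ± 0.14 (SE, limma adjusted p = 1.6e-07), a 4.33-fold difference, and the clones did not overlap. VLDLR had a single probe set. INSIG2, which retains the sterol sensor complex in the endoplasmic reticulum, averaged 1710 ± 257 in D20 and 857 ± 191 in pU6-2 (SD, n = 3 each), a log2 fold change of 0.99 ± 0.16 (SE, limma adjusted p = 3e-04).

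HILPDA, a lipid droplet protein that inhibits triglyceride breakdown, rose less, at 1537 ± 84.9 in D20 and 1172 ± 159 in pU6-2 (SD, n = 3 each). Its log2 fold change was 0.39 ± 0.12 (SE, limma adjusted p = 0.023), and its other probe set was at 0.40, also called. The call did not hold without D20 B (limma adjusted p = 0.06), without D20 C (0.061), without pU6-2 C (0.13), with median centring (0.099) or without the variance trend (0.091).

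Of the 3 glycogen genes 2 were called lower, where 20.8% of all genes were, and 1 of these calls was lost in 8 of 16 alternatives. PPP1R3C, which brings protein phosphatase 1 to glycogen and so promotes its synthesis, had the largest fall, with signals of 371.5, 528 and 297.5 in D20, against 1538, 1773 and 1531 in pU6-2. The clones lay apart, and the log2 fold change was -2.01 ± 0.18 (SE, limma adjusted p = 2.1e-06). Its other probe set was below the filter, at a mean of 27.5 in D20 and 6.53 in pU6-2, and with the mean of both the log2 fold change was -0.75 (limma adjusted p = 0.15).

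GBE1, the glycogen branching enzyme, averaged 1734 ± 33.9 in D20 and 2189 ± 306 in pU6-2 (SD, n = 3 each), a log2 fold change of -0.32 ± 0.11 (SE, limma adjusted p = 0.041). This call was lost in several alternatives, among them the fits without each D20 array (adjusted p = 0.092, 0.077 and 0.07 for A, B and C), without pU6-2 B (0.13) and without pU6-2 C (0.19), and with spike-in scaling (-0.10, limma adjusted p = 0.62). GYS1, the glycogen synthase found in muscle and most other tissues, had a log2 fold change of -0.31 (limma adjusted p = 0.16), although its D20 arrays all lay below its pU6-2 arrays.

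Of the 6 transcription regulators 3 rose and none fell, where 23.7% of all genes rose and 20.8% fell. CITED2 competes with HIF alpha for the coactivators CBP and p300 and so limits HIF activity. Its signal was 1704, 1376 and 1357 in D20, against 725, 532.5 and 601 in pU6-2, with no overlap and a log2 fold change of 1.24 ± 0.15 (SE, limma adjusted p = 2.2e-05). A second tested probe set of CITED2 was called too, at 0.83.

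BHLHE40 and BHLHE41, related repressors that also act in the circadian clock, both rose. BHLHE41 averaged 991 ± 217 in D20 and 496 ± 90.003 in pU6-2 (SD, n = 3 each), a log2 fold change of 0.97 ± 0.18 (SE, limma adjusted p = 8.5e-04). BHLHE40 averaged 2033 ± 297 in D20 and 1261 ± 106 in pU6-2 (SD, n = 3 each), at 0.67 ± 0.13 (SE, limma adjusted p = 9.5e-04). The second probe set of BHLHE40 was at 1.02 (called), and the other 3 of BHLHE41 were at 1.03, 1.53 (both called) and -0.09, the last dim and not called (limma adjusted p = 0.93).

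MXI1, which opposes MYC by pairing with its partner MAX, was at 0.17 (limma adjusted p = 0.43), ZNF395 at 0.20 (0.44) and the nuclear receptor RORA at -0.32 (0.26), and the clones overlapped for each. The probe sets of RORA pointed both ways, the other 3 tested ones lying between 0.23 and 0.73, none of them called. Averaged over all their probe sets, ZNF395 was at -0.0022 and RORA at 0.13.

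Of the 4 genes of growth control, nutrient sensing and the cell cycle 2 rose, where 23.7% of all genes rose. NDRG1, a stress-induced gene described as a suppressor of metastasis, had signals of 1299, 1157 and 1109 in D20, against 347, 415 and 238 in pU6-2. The clones did not overlap, and the log2 fold change was 1.82 ± 0.19 (SE, limma adjusted p = 6.7e-06). DDIT4, also known as REDD1, an inhibitor of the growth kinase complex mTORC1, averaged 3581 ± 320.2 in D20 and 2426 ± 361 in pU6-2 (SD, n = 3 each), at 0.56 ± 0.11 on the log2 scale (SE, limma adjusted p = 0.0017).

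RRAGD, a Rag GTPase that recruits mTORC1 to lysosomes, had a log2 fold change of 0.33 ± 0.14 (SE, limma adjusted p = 0.085), with all D20 arrays above all pU6-2 arrays. It passed the test without D20 B (0.42, limma adjusted p = 0.044) and with spike-in scaling (0.55, adjusted p = 0.01), and was lower without D20 A (0.16, adjusted p = 0.35) and with median centring (0.21, adjusted p = 0.33). CCNG2, cyclin G2, an atypical cyclin linked to cell-cycle arrest, had probe sets that disagreed. Its brightest was at -0.30 (limma adjusted p = 0.22, -0.49 with adjusted p = 0.048 without D20 C, and -0.09 with adjusted p = 0.68 without D20 B), and the others tested were at 0.50 (called, limma adjusted p = 0.022), 0.30 and 0.25.

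Of the 2 mitochondrial targets 1 fell, as did the 1 carbonic anhydrase tested, where 20.8% of all genes fell. AK4, an adenylate kinase of the mitochondrial matrix, had signals of 1105, 968 and 1099 in D20, against 2509, 2096 and 2460.0 in pU6-2. The clones lay apart, the log2 fold change was -1.14 ± 0.11 (SE, limma adjusted p = 4.6e-06), and the other 3 probe sets of AK4 were called lower too, at -0.98, -0.77 and -0.62. FAM162A, a mitochondrial protein that takes part in hypoxic cell death, had a log2 fold change of -0.21 (limma adjusted p = 0.11). It passed the test with median centring (-0.33, limma adjusted p = 0.018) and with the mean of all its probe sets (-0.39, adjusted p = 0.022). With spike-in scaling it was at 0.01 (adjusted p = 0.94). Of its other 4 probe sets 2 were called lower, at -0.43 and -0.33.

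CA12, a membrane carbonic anhydrase that acidifies the cell's surroundings, fell by 0.63 ± 0.12 on the log2 scale (SE, limma adjusted p = 9e-04), at 712 ± 14.7 in D20 and 1115 ± 58.6 in pU6-2 (SD, n = 3 each). Of its other 4 tested probe sets 1 was called lower, at -0.51, and 3 were not called, between -0.27 and 0.06. With the mean of all its probe sets CA12 was at -0.16 (limma adjusted p = 0.52).

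Neither tested gene of protein folding and turnover passed the test. ERO1A, the oxidase that drives disulfide formation in the endoplasmic reticulum, was at -0.30 ± 0.12 (SE, limma adjusted p = 0.072), and passed it without D20 B (-0.40, limma adjusted p = 0.019) and with median centring (-0.42, adjusted p = 0.013). It was nearer 0 without D20 A (-0.22, limma adjusted p = 0.23), without pU6-2 B (-0.19, adjusted p = 0.27) and with spike-in scaling (-0.07, adjusted p = 0.71). WSB1, a substrate receptor of a ubiquitin ligase, was at -0.20 ± 0.09 (SE, limma adjusted p = 0.12), at -0.27 without D20 A (adjusted p = 0.047), at -0.32 with median centring (0.024), at -0.12 without D20 B (0.33) and at 0.02 with spike-in scaling (0.91). Its other probe sets lay on both sides of 0, the lowest at -0.54 (called) and the highest at 0.28 (not called).

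ANKRD37, an ankyrin repeat protein, had signals of 341, 343 and 374 in D20, against 122, 129.9 and 104 in pU6-2, which did not overlap. Its log2 fold change was 1.46 ± 0.22 (SE, limma adjusted p = 2.2e-04). The other probe set of ANKRD37 was below the filter, at 21.4 in D20 and 53.7 in pU6-2, and with the mean of both the log2 fold change was 0.38 (limma adjusted p = 0.47). TMEM45A, a transmembrane protein, averaged 488 ± 62.7 in D20 and 761 ± 40.5 in pU6-2 (SD, n = 3 each), at -0.63 ± 0.15 (SE, limma adjusted p = 0.0042, and 0.056 with spike-in scaling).

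**Figure D4:**
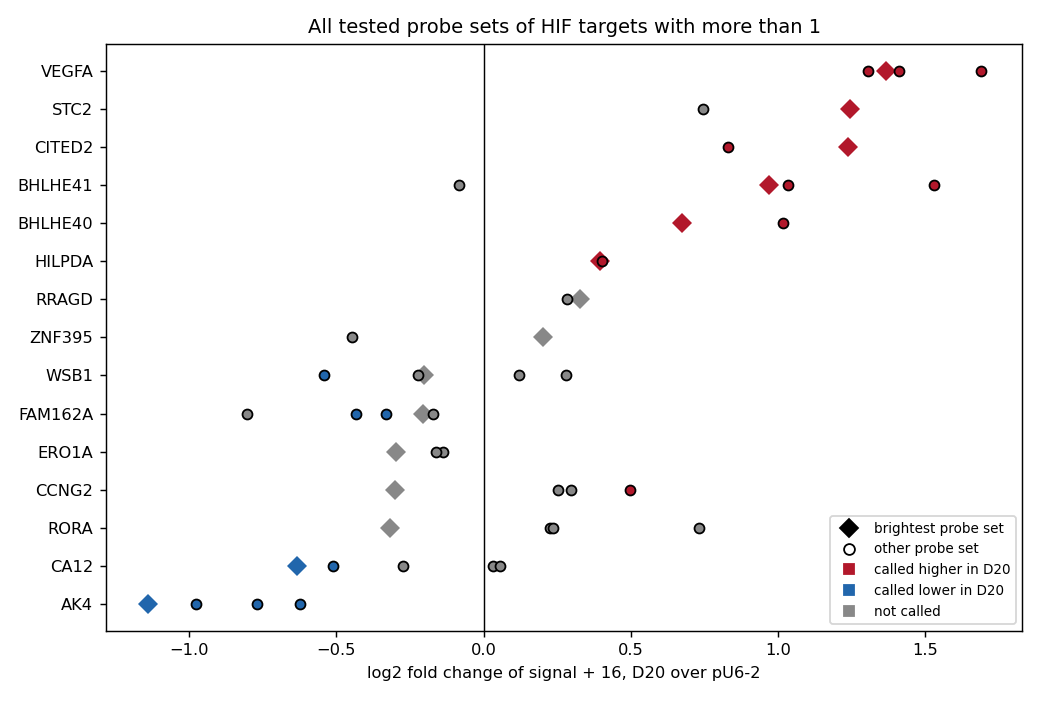
Log2 fold change of signal + 16, D20 over pU6-2, for each tested probe set of the 15 HIF targets that have more than 1 (diamond, brightest; circle, other; red, called higher; blue, called lower; grey, not called). VEGFA and AK4 keep 1 direction over 4 probe sets each, while CCNG2, RORA, WSB1, ZNF395 and the called genes CA12 and BHLHE41 have probe sets on both sides of 0.

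Where a called gene had further tested probe sets, these seldom went against it. Of all 32768 probe sets 36.5% were called in either direction. Among the 17 called genes 8 had at least 1 other tested probe set, every one of them was called in the same direction for 5 genes (VEGFA, AK4, BHLHE40, HILPDA and CITED2), and 0 genes had one called in the opposite direction. In all, 79 probe sets carried the name of 1 of these targets and 63 of them were tested. Of the 28 tested genes 1 was below the filter level in a clone, ANGPTL4 in D20, with a mean of 5.84 there and 6.16 in pU6-2 on the log2(signal + 16) scale against a filter level of 5.89, and it was not called.

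The called genes lay on 13 chromosomes, and their neighbours ran both with and against them. For each gene the nearest 10 tested genes on either side in the RefSeq order were taken, fewer at a chromosome end. Neighbours said to rise or fall are those called, as were 23.7% and 20.8% of all genes tested. The median log2 fold change of these neighbours lay between -0.63 and 0.51 over the 17 called genes, and had the same sign as the gene's own change for 9 and the opposite sign for 8. ADM rose while 11 of its 20 neighbours fell and 4 rose (median -0.41), and BHLHE41 rose while 12 of its 20 neighbours fell and 1 rose (median -0.63). STC2 had the neighbours with the highest median, at 0.51, with 12 of 20 called higher, BHLHE40 rose among neighbours of which 10 of 19 rose (median 0.37), and GBE1 fell among neighbours of which 7 of 20 fell and 4 rose (median -0.26).

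Among the HIF subunits and oxygen sensors, 3 of 8 tested genes rose and 1 fell, where 23.7% and 20.8% of all genes did. HIF1A averaged 20109 ± 647 in D20 and 10128 ± 809.9 in pU6-2 (SD, n = 3 each), a log2 fold change of 0.99 ± 0.08 (SE, limma adjusted p = 8.6e-07). EPAS1, the gene of HIF-2 alpha, rose by 0.61 (limma adjusted p = 4.9e-05, and 0.088 when its probe sets were averaged) and EGLN1, a prolyl hydroxylase that is itself a HIF target, by 0.38 (limma adjusted p = 0.0082). EGLN1 was not called with median centring (adjusted p = 0.084), without the variance trend (0.076) or when its probe sets were averaged (0.23, adjusted p = 0.36). The 1 fall was of HIF1AN, the asparagine hydroxylase that inhibits HIF, named after its values were seen, at -0.32 (limma adjusted p = 0.049). It was called in 1 of the 6 fits that leave out an array, the one without D20 B, with limma adjusted p between 0.036 and 0.21 over the 6. VHL was at -0.10 (limma adjusted p = 0.62), and at 0.12 with spike-in scaling.

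Other lists also held calls in both directions, beside 23.7% of all genes higher and 20.8% lower. Of 19 glycolytic HIF targets tested 5 rose and 6 fell, with the enolase ENO2 (3.29) and PFKFB3 (2.46), which makes an activator of phosphofructokinase, higher and the aldolase ALDOC (-2.89) lower on the log2 scale, and the 5 rises came to 2 without D20 B and 3 without pU6-2 C. Of 20 other known HIF targets tested 10 rose and 3 fell, among them the chemokine receptor CXCR4 (3.88) and the collagen-crosslinking oxidases LOXL2 (6.12) and LOX (-2.43). LOXL2 had a pU6-2 mean of 30.6, below the filter level of 43.2, so that it passed only through D20 and its change depends on the pseudocount. Over its probe sets LOXL2 averaged 2.55. ENO2 and CXCR4 were dim in pU6-2 too, with means of 62.0 and 53.1. With pseudocounts of 64 and 1 ENO2 was at 2.66 and 3.59, and CXCR4 at 3.16 and 4.24. The last list holds 18 genes, ATF4, the factor of the integrated stress response, and stress response targets. Of these 12 rose and 3 fell, with SESN2 at 2.11 and DDIT3 at -1.60. ATF4 itself, named as the factor of the list and not for its size, had the smallest of the 12 rises at 0.25 (limma adjusted p = 0.015). The 3 falls came to 1 without D20 B, without D20 C, without pU6-2 A and without pU6-2 C. VLDLR, DDIT4 and STC2, each called higher, belong to both this list and the HIF targets described above.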

How the data were processed

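The deposited values are linear intensity values, 1 signal for each probe set on each array, made by the authors with MAS5 per the submitters' processing notes. Its version and scaling target were not given in the sources. The trimmed mean (2% left out at each end) was between 500.059 and 500.065 on every array, and no detection calls were used. Pearson's r across probe sets was 0.943 to 0.952 between D20 arrays, 0.908 to 0.919 between clones and 0.954 to 0.957 between pU6-2 arrays. The number of arrays limits the precision.

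Names came from the platform annotation in GEO, brought to RefSeq symbols (GRCh38.p14) by Entrez identifier. Of 54675 probe sets 41091 had 1 symbol, 1801 several and 11721 none, and 62 were controls. Signals were taken as log2(signal + 16), which understates the change of dim genes. The 40% of probe sets with the lowest mean over all arrays, below a signal of 43.2, were left out, leaving 32768. Clones were compared by limma 3.58.1 in R 4.3.3 (lmFit, eBayes with a variance trend, two-sided, no covariate). A gene is its brightest probe set. The fit was tested on simulated data. Array values are printed for members called with a log2 fold change of at least 1 in size, and for VEGFA and EPO. Outside the members, HIF1A, EPAS1, VHL and up to 3 called genes per list with the largest changes are named. HIF1AN and ATF4 are named beyond this rule. Members, lists and tests were chosen with earlier results of these data known. Alternatives were other pseudocounts (1 and 64), no filter, other scalings, no variance trend, other probe set choices, the replicate letter as a block and leaving out each array.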

Additional observations from a re-analysis of the deposited data

How the results depend on the processing

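Of the 17 called HIF targets, 10 kept their direction and call in each alternative that gave them a value. Over the 6 fits that leave out 1 array, 11 to 12 targets were called higher, where 20.3% to 21.7% of all genes were. In the same fits 4 to 5 targets were called lower, where 17% to 20.7% of all genes were. The median log2 fold change of the targets was 0.16 to 0.38. Over those fits the counts over all probe sets stayed within 1.5 times of 6397 higher and 5555 lower, and the other lists gave 19 to 26 genes higher and 10 to 12 lower, against 27 and 13. Spike-in scaling gave 3341 probe sets lower, against 5555, with 73.2% of all calls higher, against 53.5% (42.0% with median centring). It gave 3 HIF targets lower, where 12.3% of all genes were, and a median of 0.48 over the targets. Median centring gave 8 lower, where 25.5% of all genes were. Leaving out probe sets that can match several transcripts left 18 of the targets, with 6 higher, 5 lower and a median of -0.26, so that fewer genes and another set of them were counted, and 6 genes of the other lists lower. Without the variance trend the other lists had 16 genes higher, where 19.2% of all genes were, against 27 and 23.7% with it (the cause was not tested).

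Directions that turned were all of results not called under the alternative. With the mean of all probe sets these were RORA (0.13), ZNF395 (-0.0022), CCNG2 (0.19) and VHL (0.11), with spike-in scaling FAM162A (0.015), WSB1 (0.020) and VHL (0.12), without the ambiguous probe sets BHLHE41 (-0.085) and VHL (0.32), and without D20 B ANGPTL4 (0.040). ANGPTL4 ranged from -0.71 to 0.040 over 4 of the 6 fits that leave out 1 array, and was below the filter without D20 C and without pU6-2 C. The cause was not tested, beyond the use of other probe sets where they were averaged or left out.

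The clones share the letters A, B and C, but deviations of same-letter arrays from their clone's mean correlated at -0.02, 0.05 and 0.01 across probe sets, so the letters were not taken to pair arrays. With the letter as a replicate block 12 targets were higher and 7 lower, where 24.8% and 22.2% of all genes were. ERO1A (-0.30, adjusted p = 0.011) and FAM162A (-0.21, adjusted p = 0.043) were the additions (limma). Signals near or below 43.2, such as those of EPO, ANGPTL4 and STC1, limit what can be seen for those genes.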
